A study of Rattus norvegicus with 24 samples.

Results

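Collagens and laminins are the chains from which the extracellular matrix of the brain's surface and of its vessels is assembled. On these rat arrays they were taken as every probe set whose single gene symbol in the platform annotation began with Col and a digit, or with Lama, Lamb or Lamc and a digit. The rule found 72 of 31099 probe sets, for 51 of 14218 genes. Of these, 19 probe sets for 11 genes belonged to the fibrillar collagens, 21 for 15 genes to the basement membrane chains (collagen IV and the laminins), and 32 for 25 genes to the other collagens.

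Fibrillar collagens (types I, II, III, V, XI, XXIV and XXVII) form the fibres of connective tissue, and in the adult brain they are made mostly by fibroblasts of the meninges and around larger vessels. Collagen IV and the laminins form the sheet-like basement membrane under endothelium, around pericytes and under the glial surface of the brain. The supraoptic nucleus holds the large neurosecretory cells of the vasopressin and oxytocin systems; it lies at the ventral brain surface beside the pia mater and is densely supplied with capillaries.

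Tissue of the supraoptic nucleus came from Sprague Dawley rats, and each array was hybridised with RNA of 5 pooled rats. The male set held 5 arrays of untreated controls and 5 of rats dehydrated for 3 days, all 10 to 12 weeks old. The female set held 4 arrays of euhydrated controls and 5 of rats kept for 72 hours without water and with free access to food; the labels used here give no age for females. A group of 5 pools from rats on day 11 of lactation was not analysed here. The submitters state that samples of a group may be both biological and technical replicates; the number of distinct pools in a group is not given in the sources used here, and p-values measure only the spread between these arrays, part of which may be technical. Sex, RNA extraction, labelling and signal processing changed together between the sets, so each set was compared with its own controls, and these factors cannot be told apart in any difference between the sets.

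The array of dehydrated females titled CH2770 was left out of all comparisons that follow, unless it is named. Its signals for vasopressin (Avp, 50.6) and oxytocin (Oxt, 26.0) stood against 3644 to 7666 and 3001 to 6698 on the other 8 female arrays. Its signal for the Y-linked Eif2s3y was 242, against at most 8.94 on the other female arrays, and that for the X-inactivation transcript Xist was 37.1 against 186 to 264. Collagen and laminin signals stood apart on it as well. Of the genes followed over all arrays, 13 of 13 basement membrane genes, 10 of 11 fibrillar genes and 15 of 19 other collagens were higher on it than on every other female array. The remaining arrays correlated at 0.925 to 0.973 in the female set and 0.958 to 0.98 in the male set, and array medians lay between 36.1 and 46.5. On those 8 female arrays the markers of magnocellular neurons averaged 12.1 to 12.4 on the log2 scale after dehydration and 10.9 to 11.0 in controls. Of these 7 marker genes 4 themselves rose with dehydration in females, so their mean does not measure tissue content alone.

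Stretches of 3 promoters are shown first, because they belong to the chains on which the comparisons turn: Col1a2, the fibrillar chain with the largest fall in both sets; Col8a2, the network-forming chain that fell beside it; and the collagen IV pair Col4a1 and Col4a2, which are read in opposite directions from a shared segment and passed in neither set. Capitals mark 3 promoter motifs, each searched on both strands: the CCAAT motif, the GC box with the letters GGGCGG, and the TATA box with the letters TATAAA. The sequences are from RefSeq, build GRCr8, and hold only bases before the annotated start.
Col1a2, chr4:33518307-33518422, plus strand: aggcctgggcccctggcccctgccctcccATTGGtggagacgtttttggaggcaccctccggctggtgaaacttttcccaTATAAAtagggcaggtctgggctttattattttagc
Col8a2, chr5:143870519-143870768, plus strand: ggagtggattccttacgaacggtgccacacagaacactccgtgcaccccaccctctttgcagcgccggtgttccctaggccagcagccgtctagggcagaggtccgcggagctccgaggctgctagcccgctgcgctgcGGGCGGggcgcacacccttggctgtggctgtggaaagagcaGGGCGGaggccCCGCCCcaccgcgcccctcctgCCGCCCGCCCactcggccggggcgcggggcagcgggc
Col4a1 and Col4a2, chr16:84885521-84885596, strand of Col4a1: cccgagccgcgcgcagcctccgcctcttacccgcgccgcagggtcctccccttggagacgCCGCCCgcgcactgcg

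The Col1a2 stretch held 1 CCAAT, as ATTGG, and 1 TATAAA. It is the first 116 bases of a window of 250 and ends 30 bases past the TATAAA, short of the annotated start. The Col8a2 window held 5 GC boxes, of which the last pair share letters, and neither other motif. The starts of Col4a1 and Col4a2 lay 77 bases apart, and the 76 bases between them were 78.9% G or C, with 1 GC box and neither other motif. Their full windows of 250 bases each held 1 CCAAT, with 1 GC box for Col4a1 and 2 for Col4a2. Of the 51 genes, 41 had a window of 250 bases in the RefSeq table; 11 of them held CCAAT, 23 a GC box and 5 TATAAA. Among 33469 windows of that length, 34.0% held CCAAT, 30.5% a GC box and 12.9% TATAAA. Of 8 fibrillar genes with a window, 3 held CCAAT, 6 a GC box and 1 TATAAA; of 14 basement membrane genes the counts were 4, 9 and 1. These are matches of letters and were not tested as sites.

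In both sets the collagens that changed with dehydration were mostly lower. Col1a2, Col25a1, Col8a2 and Col5a1 fell in females, and the largest falls in males, by the probe set of a gene that changed most, were those of Col1a2, Col8a2, Col5a1, Col14a1, Col6a3, Col1a1 and Col13a1. Most collagen IV and laminin chains passed the test in neither set. A fold change is given here as the difference of mean log2(signal + 32), dehydrated minus control, with signals scaled to a common trimmed mean; a probe set is called lower or higher at an adjusted p under 0.05 (limma, Benjamini-Hochberg over 21729 probe sets). In the female set 54 member probe sets were tested, and 6 fell (11.1%), where 1.19% of all probe sets tested fell; no member rose, where 1.77% of all probe sets rose, and 5 were higher at an unadjusted p under 0.05 (limma). In the male set 55 were tested, and 23 fell (41.8%), where 9.38% of all probe sets fell; 2 rose (3.64%), where 8.32% of all did. Because the tissue was measured in bulk, fewer cells of a type and less RNA per cell cannot be told apart.

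By class, 3 of 14 fibrillar probe sets fell in females (21.4%) and 11 of 16 in males (68.8%), with 1 higher in males (6.25%). Of the basement membrane probe sets, 1 of 16 fell in females (6.25%) and 2 of 17 in males (11.8%). Of the other collagens, 2 of 24 fell in females (8.33%) and 10 of 22 in males (45.5%), with 1 higher in males (4.55%). Over all probe sets tested, 1.19% fell in females and 9.38% in males, and 8.32% rose in males. The male basement membrane share lay near that of all probe sets. With 1 probe set a gene, the median log2 fold change was -0.39 over 9 fibrillar genes in females and -0.53 over 11 in males, against 0.05 over 12 and -0.18 over 13 basement membrane genes. The median over all probe sets tested was -0.03 in females and -0.04 in males. The left-out array bore on the female counts: with it, no member fell, and the fibrillar median became -0.20 and the basement membrane median 0.34.

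**Figure D1:**
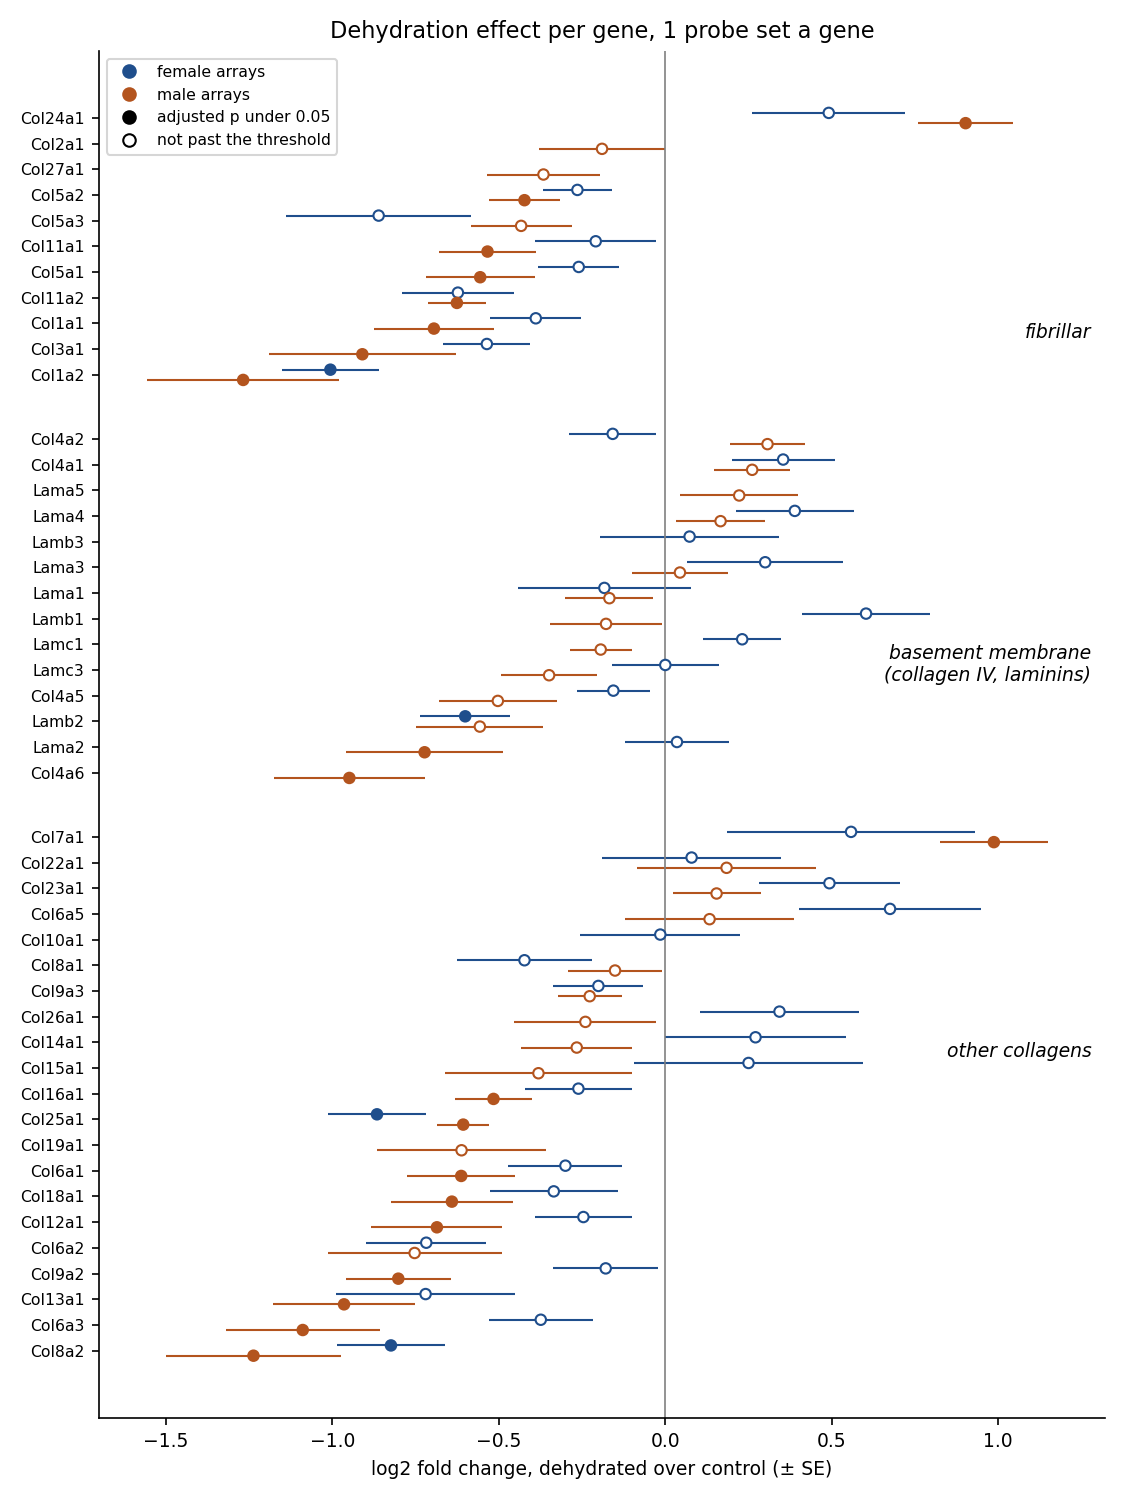
Log2 fold change of dehydrated over control with its SE for each of the 46 genes with a tested probe set, 1 probe set a gene, in the female (blue) and male (orange) arrays; filled points passed an adjusted p of 0.05. All fibrillar genes but Col24a1 lie left of 0 in both sets where tested, while the collagen IV and laminin genes lie on both sides of it.

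The remaining members had too little signal to test. Of the 72 probe sets, 11 were tested in neither set, with signals between 0.128 and 31.0 on the 18 arrays. For 5 genes (Col4a4, Col6a6, Col9a1, Col17a1 and Col20a1) no probe set was tested. Of 48 probe sets tested in both sets, 5 fell in both, 1 in females only and 16 in males only, and 39 had a fold change of the same sign; the sets differ in precision, with a median SE of 0.17 in females and 0.12 in males. The difference between the sets was itself tested for 56 member probe sets, and none passed, where 0.0322% of all probe sets did.

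Among the fibrillar chains, Col1a2 and Col1a1 encode the 2 kinds of chain of type I collagen, the main fibre of connective tissue. For Col1a2 (1370155_at) the female control arrays gave signals of 426, 434, 665 and 572 and the dehydrated arrays 285, 244, 246 and 240.2. In males the controls gave 1644, 1696, 1441, 1326 and 716 and the dehydrated arrays 957, 322, 794, 325 and 569.6. The female groups did not overlap, whereas in males the fifth control array lay below 2 of the dehydrated arrays. The log2 fold change was -1.01 (SE 0.15, adjusted p = 0.00492) in females and -1.27 (SE 0.29, adjusted p = 0.0077) in males. The other Col1a2 probe set (1387854_at) also fell, by 0.71 and 1.17 on the log2 scale (adjusted p = 0.041 and 0.013).

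For Col1a1 (1370864_at) the female controls gave 126, 121, 121 and 103 and the dehydrated females 102, 97.8, 71.3 and 84.9. The male controls gave 218, 193, 212, 149 and 126 and the dehydrated males 136, 82.6, 136, 72.5 and 121. Every dehydrated female array lay below every control, but the log2 fold change of -0.39 (SE 0.14, adjusted p = 0.148) did not pass in females. In males the groups overlapped and it was -0.69 (SE 0.18, adjusted p = 0.0163). A further Col1a1 probe set (1388116_at) gave -0.63 (SE 0.16, adjusted p = 0.0609) in females and -1.09 (SE 0.28, adjusted p = 0.0139) in males.

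Col3a1, the chain of type III collagen, which is laid down with type I in soft connective tissue, gave 247, 318, 306 and 303 in female controls and 250.3, 193, 179.9 and 183 in dehydrated females. In males it gave 699, 739, 612, 601 and 292 in controls and 480.5, 174, 405, 187 and 354 after dehydration. Both sets overlapped: 1 dehydrated female array reached the lowest female control, and the fifth male control lay below 3 dehydrated arrays. The log2 fold change was -0.54 (SE 0.13, adjusted p = 0.0502) in females, just outside the threshold, and -0.91 (SE 0.28, adjusted p = 0.036) in males. The male call was lost without any one of 6 arrays (dehydrated 2 or 4, or control 1, 2, 3 or 4), with fold changes of -0.72 to -0.89, and without the filter or the mean-variance trend. With the mean of the meninges markers in the fit its direction turned, to 0.38 (adjusted p = 0.042).

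**Figure D2:**
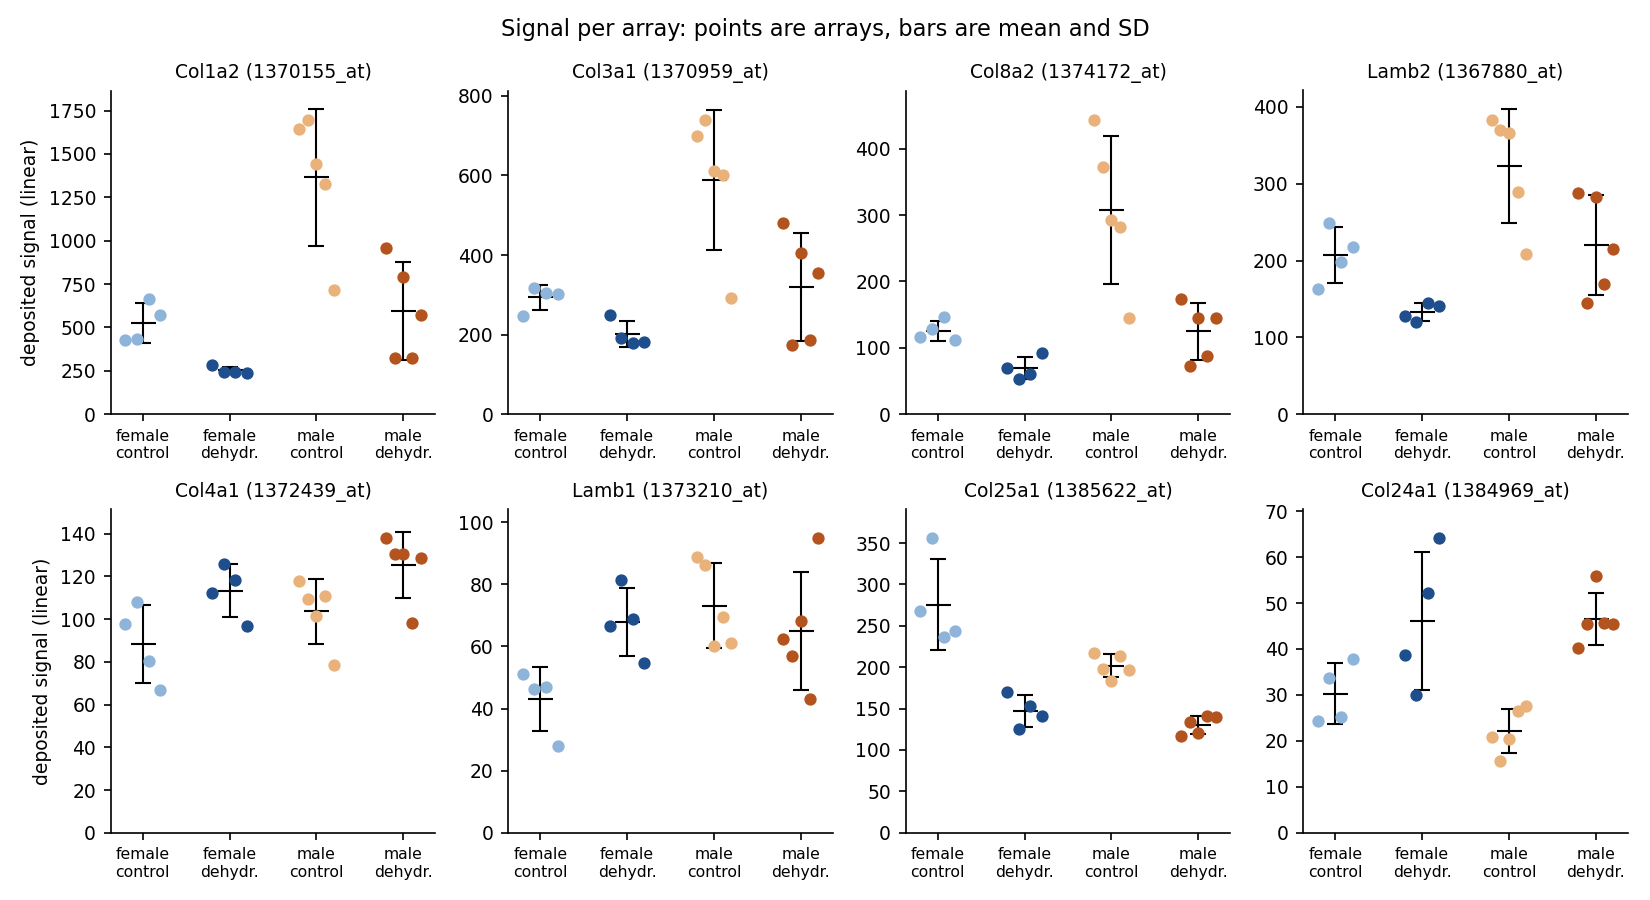
Deposited signal on a linear axis for 8 genes, 1 point an array, with the mean and SD of each group (4 female and 5 male arrays a group). Col1a2, Col3a1, Col8a2 and Lamb2 are lower after dehydration with wide spread among male arrays, Col25a1 separates the groups in both sets, and Col4a1 and Lamb1 are not lower in dehydrated females.

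The minor fibrillar chains of type V collagen regulate fibril width. Col5a1 was measured by a pair of probe sets, and 1 of them (1369955_at) fell in both sets, with -0.71 (SE 0.17, adjusted p = 0.0456) in females and -1.12 (SE 0.32, adjusted p = 0.0251) in males. The brighter one (1376099_at) gave -0.26 (SE 0.12, adjusted p = 0.271) in females and -0.56 (SE 0.16, adjusted p = 0.0297) in males. Col5a3 missed the threshold in both sets, at -0.86 (SE 0.28, adjusted p = 0.119) and -0.43 (SE 0.15, adjusted p = 0.0622).

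Col5a2 (1370895_at) gave 200.5, 207, 191 and 216 in female controls and 166, 164, 187 and 158 in dehydrated females, 364, 314, 326, 325 and 239 in male controls and 263, 205, 244, 199 and 246 in dehydrated males. The female groups did not overlap, and the male groups overlapped through the fifth control. The fold change of -0.26 (SE 0.10, adjusted p = 0.191) in females did not pass, and that of -0.42 (SE 0.11, adjusted p = 0.013) in males did; its other probe set passed in neither set, at 0.01 and -0.25.

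Col11a1 and Col11a2 encode chains of type XI collagen, best known from cartilage. Col11a2 gave 125, 152, 139.8 and 102 in female controls and 59.4, 88.7, 100.4 and 81.5 after dehydration, 273, 249.5, 270.1, 256 and 231 in male controls and 180.2, 141, 191, 159 and 151 after dehydration. Neither set overlapped, and the male arrays of each group lay close together. The fold changes were -0.62 (SE 0.17, adjusted p = 0.0722) in females and -0.63 (SE 0.09, adjusted p = 0.000211) in males, the smallest adjusted p of any fibrillar chain. Col11a1 (1392915_at) gave 49.0, 40.7, 35.8 and 49.5 in female controls, 43.9, 31.1, 43.0 and 30.5 in dehydrated females, 86.3, 57.6, 53.3, 53.4 and 50.2 in male controls and 34.7, 33.7, 37.1, 41.0 and 49.1 in dehydrated males. It separated the male groups, at -0.53 (SE 0.14, adjusted p = 0.0201), and overlapped in females, at -0.21 (SE 0.18, adjusted p = 0.573); without dehydrated male array 2 the male value of -0.49 no longer passed.

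Col24a1, a fibrillar chain known from developing bone and cornea, went the other way. Its signals were 24.4, 33.7, 25.2 and 37.9 in female controls and 38.7, 29.9, 52.1 and 64.1 in dehydrated females, 20.8, 15.7, 20.3, 26.4 and 27.5 in male controls and 40.3, 45.4, 55.9, 45.6 and 45.5 in dehydrated males. The male groups did not overlap and the female groups did. It rose in males, at 0.90 (SE 0.14, adjusted p = 0.000708), and the female value was 0.49 (SE 0.23, adjusted p = 0.274). Col2a1, the cartilage chain, and Col27a1 were tested in males at -0.19 and -0.37 by their brighter probe sets, and neither passed.

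Among the collagen IV chains, Col4a1 and Col4a2, which together make the ubiquitous collagen IV trimer of vessel walls, passed in neither set. Col4a1 (1372439_at) gave 97.7, 108, 80.4 and 66.7 in female controls, 112, 126, 118 and 96.8 in dehydrated females, 118, 109, 101, 111 and 78.7 in male controls and 138, 130.2, 131, 98.2 and 129 in dehydrated males. The groups overlapped in both sets, with dehydrated means above the controls, at 0.35 (SE 0.15, adjusted p = 0.243) in females and 0.26 (SE 0.11, adjusted p = 0.131) in males. Its other probe set gave 0.19 and 0.32 (adjusted p = 0.485 and 0.0556).

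Col4a2 gave 119, 151, 115 and 140.5 in female controls, 137, 107, 117 and 108 in dehydrated females, 138, 111, 149, 124 and 127 in male controls and 189.9, 169, 161, 119 and 178 in dehydrated males. Overlap was present in both sets, and the values were -0.16 (SE 0.13, adjusted p = 0.553) in females and 0.31 (SE 0.11, adjusted p = 0.0766) in males. With arrays centred on their medians, the male value was 0.39 and passed.

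Col4a5 and Col4a6, another divergent pair, whose chains form the collagen IV of some epithelial and smooth muscle basement membranes, start 1415 bases apart. Col4a6 (1386827_at) gave 6.40, 7.99, 30.9 and 13.5 in female controls, 14.3, 12.7, 28.8 and 23.8 in dehydrated females, 42.3, 36.9, 36.9, 41.5 and 25.7 in male controls and 30.9, 16.4, 15.7, 14.7 and 6.80 in dehydrated males. It was too dim to test in females and fell in males, at -0.95 (SE 0.23, adjusted p = 0.00995), with overlap in both sets; its other probe set gave -0.32 in males and did not pass. Col4a5 gave -0.16 (SE 0.11, adjusted p = 0.473) in females and -0.50 (SE 0.18, adjusted p = 0.0645) in males.

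The laminins form trimers of an alpha, a beta and a gamma chain, and few of their chains passed the test. Lama2, the alpha chain of muscle and peripheral nerve basement membranes, gave 68.1, 87.9, 64.7 and 58.4 in female controls and 63.3, 69.1, 87.0 and 66.1 in dehydrated females. In males the signals were 197, 172, 125, 136 and 78.5 in controls and 132, 57.5, 82.7, 53.7 and 93.3 in dehydrated arrays. Both sets overlapped, and the fold change was 0.04 (SE 0.16, adjusted p = 0.928) in females and -0.72 (SE 0.24, adjusted p = 0.047) in males. The male call sat at the threshold: it was lost without any one of 8 of the 10 arrays, without the filter, without the mean-variance trend, and with quantile normalisation or median centring, at fold changes of -0.59 to -0.78.

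Lama4, the alpha chain of endothelial basement membranes, gave 38.7, 60.0, 56.4 and 70.9 in female controls, 80.6, 71.4, 84.9 and 62.8 in dehydrated females, 78.3, 81.9, 85.4, 79.2 and 51.9 in male controls and 104, 75.9, 88.5, 69.2 and 87.0 in dehydrated males. Its groups overlapped in both sets, at 0.39 (SE 0.18, adjusted p = 0.261) and 0.17 (SE 0.13, adjusted p = 0.434). Lama1, Lama3 and Lama5 were between -0.18 and 0.30 wherever tested, and none passed.

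Lamb2, the beta chain of neuromuscular and glomerular basement membranes, was the laminin that fell in females. It gave 163, 249, 198 and 218 in female controls and 128, 119.7, 145 and 141 in dehydrated females, 383, 369.6, 366, 289 and 208 in male controls and 288, 144, 283, 169.8 and 215 in dehydrated males. The female groups did not overlap and the male groups did. The fold changes were of like size, -0.60 (SE 0.14, adjusted p = 0.0399) in females and -0.56 (SE 0.19, adjusted p = 0.0573) in males. The female call was lost without any one of 6 of the 8 arrays, at -0.51 to -0.63, and under quantile normalisation, median centring, no mean-variance trend or 1 fit over the 4 groups.

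Lamb1, the beta chain of most vessel laminins, gave 51.0, 46.4, 46.9 and 27.8 in female controls and 66.5, 81.5, 69.0 and 54.5 in dehydrated females, 88.8, 86.3, 60.2, 69.6 and 61.0 in male controls and 62.5, 56.8, 68.2, 43.1 and 94.8 in dehydrated males. All dehydrated female arrays lay above all controls, yet the value of 0.60 (SE 0.19, adjusted p = 0.114) did not pass; the male groups overlapped, at -0.18 (SE 0.17, adjusted p = 0.509). Among the 54 member probe sets tested in females it was the single one with separated and higher groups, where 5.31% of all tested probe sets were so, and 13 were separated and lower, where 7.03% of all were. Among the 55 tested in males 5 were separated and lower, where 5.84% of all were, and 2 separated and higher, where 6.82% of all were.

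Lamc1, the gamma chain shared by most laminins, gave 147, 159.7, 165 and 181 in female controls, 213, 176, 212 and 172 in dehydrated females, 209, 211, 184, 199 and 165 in male controls and 178, 153, 200, 151 and 162 in dehydrated males. The groups overlapped in both sets, at 0.23 (SE 0.12, adjusted p = 0.311) and -0.19 (SE 0.09, adjusted p = 0.168). Lamb3 and Lamc3 did not pass in any set tested, at -0.35 to 0.07.

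The signs of several basement membrane chains were opposite between the sets, among them Lamc1, Lamb1 and Col4a2, and no difference passed the correction (limma). Of the other chains listed next, Col4a6 was too dim to test in the female set, and the female value of Lama2 was 0.04 (SE 0.16). The male minus female difference of fold changes was -0.43 (SE 0.15) for Lamc1, -0.78 (SE 0.27) for Lamb1, -1.35 (SE 0.43) for Col4a6, 0.47 (SE 0.18) for Col4a2 and -0.76 (SE 0.32) for Lama2. With Col9a2 (-0.62) and Col6a3 (-0.72) these were the 7 member probe sets at an unadjusted p under 0.05, and the smallest adjusted p was 0.258.

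Among the other collagens, Col8a2, a chain of short-chain type VIII collagen known from the basement membrane of the cornea and from vessel walls, fell in both sets. It gave 116, 129, 146 and 112 in female controls and 70.0, 53.8, 60.8 and 91.9 in dehydrated females, 443, 373, 293, 282 and 145 in male controls and 174, 73.1, 145, 87.1 and 146 in dehydrated males. The female groups did not overlap, and in males the fifth control lay among the dehydrated arrays. The fold changes were -0.82 (SE 0.16, adjusted p = 0.022) in females and -1.24 (SE 0.26, adjusted p = 0.00511) in males. In females the call was lost without any one of 4 arrays (control 1 or 3, dehydrated 1 or 2), at -0.72 to -0.86, and with median centring or 1 fit over the 4 groups. Col8a1, its partner chain, gave -0.42 and -0.15 and did not pass.

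Col25a1 encodes a transmembrane collagen of neurons. It gave 268, 356, 236 and 243 in female controls and 169.7, 125, 153 and 142 in dehydrated females, 217, 198, 184, 214 and 197 in male controls and 117, 134, 121, 141 and 139 in dehydrated males. The groups were separated in both sets, with little spread among the male arrays. It fell in females, at -0.87 (SE 0.15, adjusted p = 0.011), and in males, at -0.61 (SE 0.08, adjusted p = 0.000126), the smallest adjusted p of any member; both calls held without each array in turn, and the female call was lost with the left-out array (-0.87, adjusted p = 0.163) and when the mean of the meninges markers entered the fit (-1.28, adjusted p = 0.446).

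Col13a1, a transmembrane collagen of the neuromuscular junction, gave 25.5, 26.9, 27.9 and 46.4 in female controls, 15.4, 9.20, 18.3 and 24.6 in dehydrated females, 61.4, 65.5, 53.4, 39.1 and 30.9 in male controls and 29.9, 15.2, 22.2, 14.5 and 30.8 in dehydrated males. Both sets were separated, by a narrow gap in males. The value was -0.72 (SE 0.27, adjusted p = 0.171) in females, which did not pass, and -0.96 (SE 0.21, adjusted p = 0.00633) in males.

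Col7a1, the chain of the anchoring fibrils of skin, was the other member that rose. It gave 9.65, 57.8, 35.3 and 60.2 in female controls and 63.8, 58.4, 44.2 and 51.9 in dehydrated females, 17.0, 30.9, 32.2, 30.6 and 33.3 in male controls and 61.4, 54.5, 83.3, 51.2 and 64.7 in dehydrated males. Separation was seen in males, at 0.99 (SE 0.16, adjusted p = 0.000915), and not in females, where the first control was far below the rest, at 0.56 (SE 0.37, adjusted p = 0.449).

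Collagen VI, a beaded filament between basement membranes and fibres, was lower in males through Col6a1 and Col6a3. Col6a3 (1389966_at) gave 91.7, 87.0, 78.6 and 98.2 in female controls, 91.5, 57.9, 59.5 and 63.2 in dehydrated females, 188, 189.9, 151, 152 and 75.7 in male controls and 107, 46.3, 73.8, 51.0 and 59.2 in dehydrated males. Its groups overlapped in both sets, at -0.37 (SE 0.16, adjusted p = 0.224) in females and -1.09 (SE 0.23, adjusted p = 0.00524) in males. Col6a1 gave -0.61 (SE 0.16, adjusted p = 0.0172) in males, and Col6a2, separated in females, missed the threshold at -0.72 (SE 0.18, adjusted p = 0.0556) and -0.75 (SE 0.26, adjusted p = 0.059).

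The fibril-associated collagens, which decorate the surface of fibres, gave 4 falls in 8 probe sets in males and none in 7 in females. Of all probe sets tested, 9.38% fell in males and 1.19% in females. Col9a2 gave 104, 74.9, 86.8 and 72.2 in female controls, 63.5, 92.2, 71.3 and 68.4 in dehydrated females, 149, 167, 169, 148 and 95.2 in male controls and 108, 58.9, 86.7, 75.1 and 75.2 in dehydrated males. It overlapped in both sets, in males only through the fifth control, at -0.18 (SE 0.16, adjusted p = 0.577) and -0.80 (SE 0.16, adjusted p = 0.00336). Col16a1 gave 150.5, 132, 154 and 123 in female controls, 142, 123, 122 and 81.9 in dehydrated females, 242, 202, 180.2, 176 and 179 in male controls and 154, 104, 159, 123 and 137 in dehydrated males. The male groups of Col16a1 were separated, at -0.52 (SE 0.12, adjusted p = 0.00758), and the female groups overlapped, at -0.26 (SE 0.16, adjusted p = 0.406).

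Col12a1 fell in males, at -0.69 (SE 0.20, adjusted p = 0.0262). A dimmer probe set of Col14a1 did so too, at -1.11 (SE 0.30, adjusted p = 0.0195), while its brighter one gave -0.27 and did not pass. Col18a1, the basement membrane zone collagen that is the precursor of endostatin, fell in males at -0.64 (SE 0.18, adjusted p = 0.0256). The remaining tested genes of the other collagens (Col6a5, Col9a3, Col10a1, Col15a1, Col19a1, Col22a1, Col23a1 and Col26a1) passed in neither set, at -0.61 to 0.68.

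The arrays of a group differed from each other, and markers of the meninges were followed beside the collagens. The marker list held 16 genes, none of them a collagen or laminin, and 12 were tested, among them the solute carriers Slc6a13, Slc13a4 and Slc22a8, the retinoid genes Crabp2 and Aldh1a2, and Gjb2 and Igf2. Of these, 6 of 12 fell in females and 11 of 12 in males, where 1.19% and 9.38% of all probe sets fell, with medians of -0.77 and -1.26. The transporter Slc13a4 (-0.98 in females and -1.48 in males), Crabp2 (-0.86 and -1.59) and the connexin Gjb2 (-0.79 and -1.10) fell in both sets.

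The mean log2 level of the 12 markers was 9.66 to 10.2 in female controls and 9.14 to 9.38 in dehydrated females, without overlap. In males it was 10.1 to 11.2 in controls and 8.92 to 10.3 after dehydration, with overlap. Because meninges markers and treatment went together on the female arrays, their parts in the fall of Col1a2 and the other chains cannot be told apart there. Of 15 endothelium markers none passed in either set, with medians of 0.03 in both. At an unadjusted p under 0.05 (limma) there were 0 in females and 3 in males. The fold change was negative for 6 of the 15 in females and 5 in males. Vwf gave -0.25 in females and -0.64 in males (limma, adjusted p = 0.0641). In males Tek gave -0.27 and Slco1c1 0.2 (limma, adjusted p = 0.0636 and 0.0796).

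**Figure D3:**
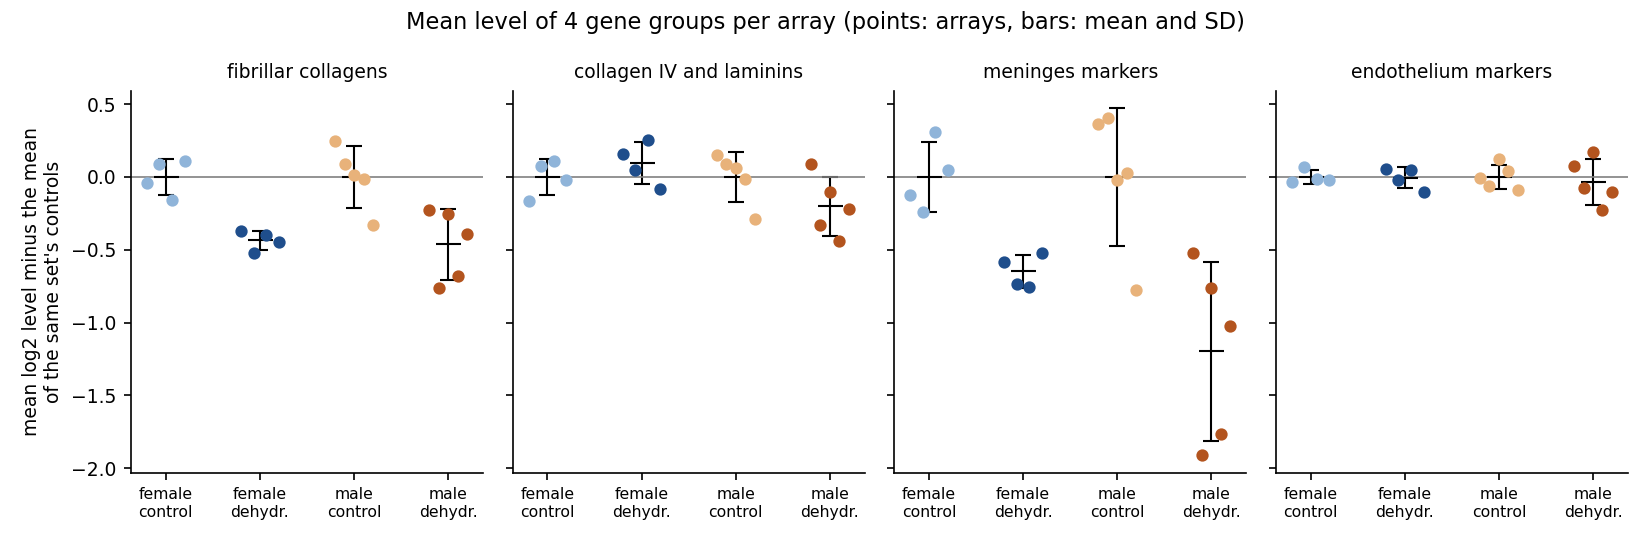
Mean log2 level per array of 11 fibrillar genes, 13 collagen IV and laminin genes, 12 meninges markers and 15 endothelium markers, each minus the mean of the controls of the same set; points are arrays and bars are the mean and SD of a group. Fibrillar genes and meninges markers are lower after dehydration, and endothelium markers are level. The same male arrays lie low for the fibrillar genes, the meninges markers and the collagen IV and laminin genes.

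The mean over the 11 fibrillar genes was 8.70 to 8.96 in female controls and 8.33 to 8.48 in dehydrated females, and 9.07 to 9.65 and 8.64 to 9.18 in males. The mean over the 13 basement membrane genes was 8.33 to 8.60 and 8.41 to 8.74 in females, and 8.62 to 9.07 and 8.48 to 9.001 in males. The difference of the class means has no meaning as a level, since probe sets differ in brightness, but can be followed across arrays. It was 0.10 to 0.49 in female controls and -0.29 to -0.01 in dehydrated females, and 0.44 to 0.59 and 0.06 to 0.34 in males. The groups were separated on it in both sets.

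Within the groups, male arrays differed more than female ones in meninges markers, with an SD of the marker mean of 0.55 in males and 0.19 in females. Control 5 lay 0.78 below its group mean on the log2 scale, and dehydrated arrays 2 and 4 lay 0.72 and 0.57 below theirs. Control 5 had the lowest control signal for 27 of 46 collagen and laminin genes. Dehydrated arrays 2 and 4 had the lowest signal of their group for 18 and 16.

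Each of 43 member genes was set against the meninges marker mean over the 10 male arrays, as deviations from group means. This comparison was added after the values were seen; p-values are from all 14400 permutations of arrays within groups, two-sided, and were adjusted over 21717 probe sets. Col3a1 gave Pearson's r of 0.991 and Spearman's rho of 0.988 (exact permutation p = 0.000139 and 0.000347, adjusted 0.0754 and 0.148). Col1a2 gave 0.988 and 0.964 (exact permutation p = 0.000347 and 0.000625, adjusted 0.0769 and 0.148), and Col5a1 0.985 and 0.915 (exact permutation p = 0.000417 and 0.00125, adjusted 0.0823 and 0.148). No probe set of the array passed the correction. The smallest exact permutation p that 14400 permutations can give is 6.94e-05, which limits how small an adjusted p can become over 21717 probe sets. At an unadjusted exact permutation p under 0.05, 7 of 11 fibrillar, 6 of 13 basement membrane and 10 of 19 other genes had a positive r and none a negative one, where 7.38% of all probe sets had a positive and 6.76% a negative r. The median r was 0.749 over the 43 genes and -0.0416 over all probe sets.

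High values of r occurred in every class. Lamb2 gave r = 0.956 and rho = 0.952, Lama2 0.943 and 0.903, and Col4a5 0.928 and 0.927, at levels like those of Col8a2 (0.962 and 0.867) and Col6a3 (0.934 and 0.927). Col4a1 gave 0.749 and 0.733 (exact permutation p = 0.018 and 0.0163, adjusted 0.245 and 0.26). Among the genes called in males, the lowest r belonged to Col24a1 (r = -0.386, rho = -0.442), Col25a1 (-0.348 and -0.309), Col7a1 (0.0916 and 0.0424), Col11a1 (0.327 and 0.382) and Col4a6 (0.436 and 0.407), whose unadjusted exact permutation p-values for r ran from 0.278 to 0.798. Members also followed the endothelium marker mean on the male arrays. That r was 0.629 for Col3a1, 0.7 for Col1a2, 0.67 for Lamb2, 0.758 for Col11a2 and 0.616 for Col4a2. With the meninges mean, Col11a2 gave 0.752 and Col4a2 0.359. Over pairs of single genes, the median r of fibrillar genes was 0.77 with meninges and 0.257 with endothelium markers. For basement membrane genes it was 0.566 and 0.358. None of these was tested.

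Leaving out the 2 arrays farthest from the median of the markers gave r = 0.983 for Col3a1, 0.977 for Col1a2, 0.893 for Lamb2 and 0.929 for Col4a1. The 3 low arrays stand apart from the other 7 on the markers. Within those 7, r was 0.977 for Col3a1, 0.914 for Col1a2, 0.939 for Col6a3, 0.731 for Lamb2 and 0.83 for Lama2. It was lower for Col1a1 (0.441), Col5a2 (0.42), Lama4 (0.416), Col14a1 (0.336), Col13a1 (0.462), Col11a2 (0.395) and Col12a1 (0.023). Leaving out the 3 arrays also narrows the range of the markers, which can itself lower r, and no r over the 7 arrays was tested. Over the 8 female arrays the median r was -0.331 for the fibrillar and -0.141 for the basement membrane genes, against 0.807 and 0.63 in males, and no member reached an unadjusted exact permutation p under 0.05, where 1.26% of all probe sets did with a positive and 3.14% with a negative r. The values ran from -0.719 for Col4a1, with Lama2 at -0.671, to 0.85 for Col1a2 (rho = 0.714, exact permutation p = 0.0521 and 0.132). The difference between the sets in this relation was not tested.

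**Figure D4:**
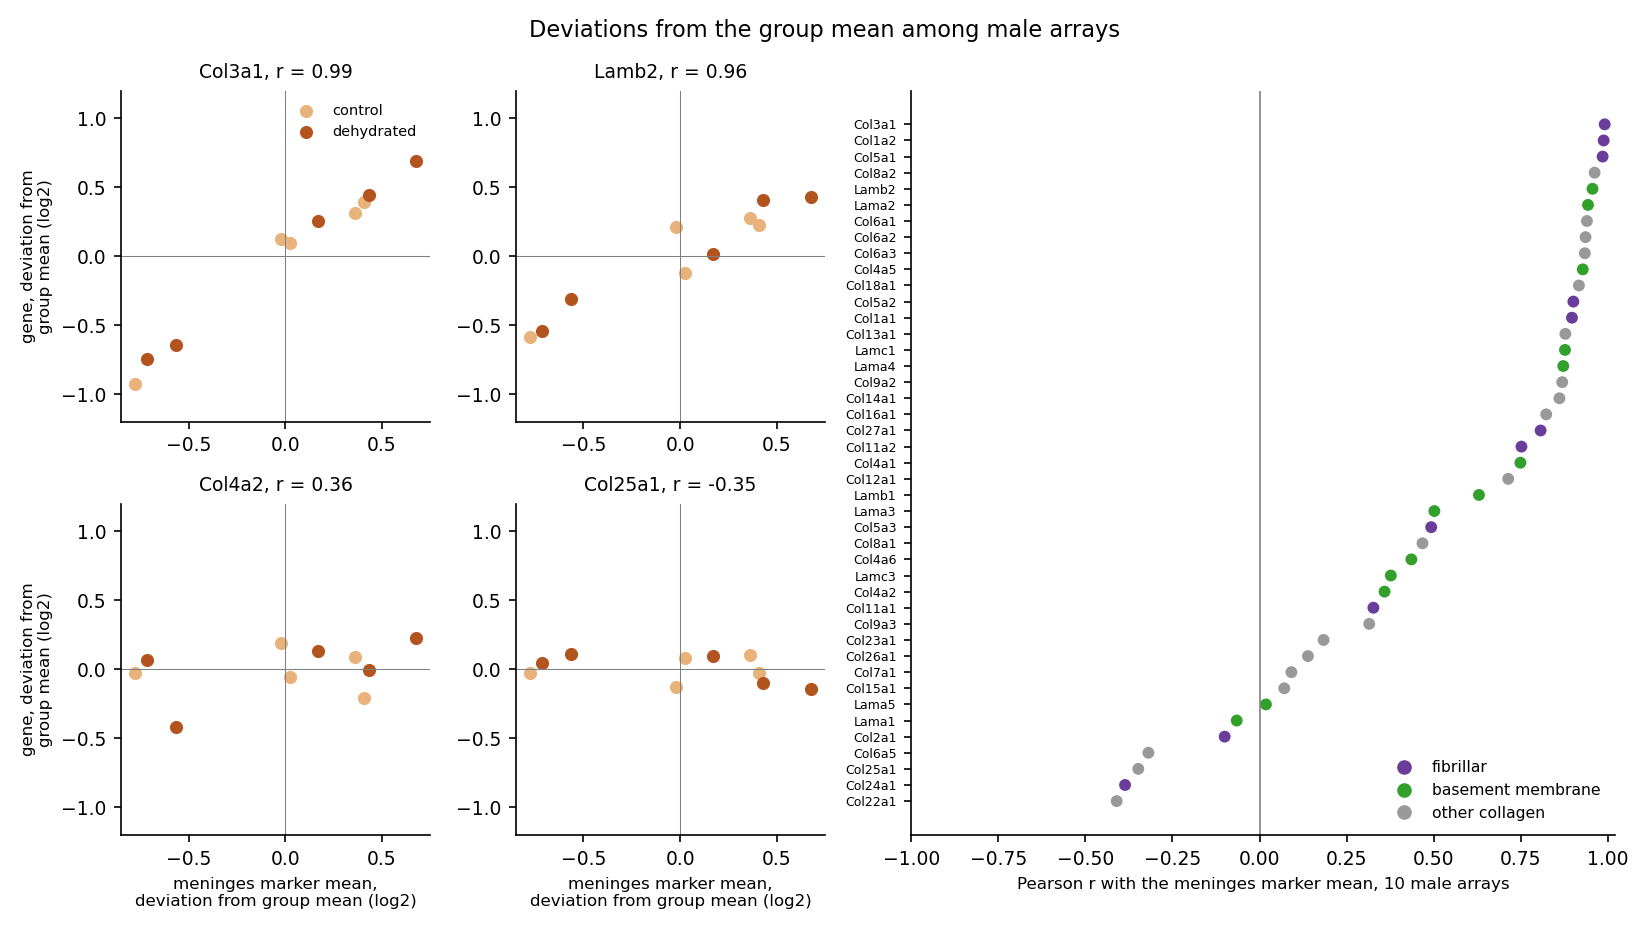
Left, deviation from the group mean of 4 genes against that of the mean of 12 meninges markers on the 10 male arrays, both on the log2 scale; right, Pearson's r of that relation for 43 collagen and laminin genes, by class. Col3a1 (0.99) and Lamb2 (0.96) rise with the markers in both groups, Col4a2 (0.36) and Col25a1 (-0.35) do not.

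Arrays of different treatment but like meninges marker level can be read side by side in the male set. Control 5 had a marker mean of 10.1 and signals of 716 for Col1a2, 292 for Col3a1 and 145 for Col8a2. Dehydrated array 3, also at 10.1, had 794 for Col1a2, 405 for Col3a1 and 145 for Col8a2. For Col25a1 the same arrays gave 197 and 121, and for Col24a1 27.5 and 55.9. Col1a2 and Col3a1 were higher on the dehydrated array. Col11a2 (231 and 191), Col11a1 (50.2 and 37.1), Col5a3 (42.2 and 28.1), Col25a1 and Col24a1 differed in the direction of the whole groups. This is 1 array of each group, picked after the values were seen, and was not tested. Control 5 also lay far below the other male controls for Col1a2 (next 1326) and Col3a1 (next 601), so the pair does not sort the genes.

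When the marker mean was added to the fit as a covariate, the counts of members changed in both sets. In males 1 of 55 member probe sets fell, where 1.06% of all probe sets did; it was that of Col25a1 (-0.69, SE 0.12, adjusted p = 0.00589). A further 4 were higher, where 2.0% of all were: Col7a1 at 1.04 (adjusted p = 0.0401), Lama4 at 0.62 (adjusted p = 0.0345), Col4a1 at 0.59 (adjusted p = 0.0381) and Col3a1 at 0.38 (adjusted p = 0.042). The median over fibrillar genes was then 0.02 and that over basement membrane genes 0.24. In females no member passed in that fit (limma), where 0 probe sets in all were lower and 0.0184% higher, and the median SE over all probe sets rose from 0.17 to 0.38. In males that SE rose from 0.12 to 0.18. The male marker mean averaged 10.8 in controls and 9.64 after dehydration, so markers and treatment went together in part there too. The male values with the covariate therefore do not separate the 2.

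For 12 gene pairs named with earlier results known, covariation was also computed over all 18 arrays, again as deviations from group means, with p-values adjusted over the 12 pairs. Col1a2 and Col3a1 gave r = 0.948 and rho = 0.884 (permutation test, adjusted p = 0.00036 and 0.00138), and 0.901 without the 2 farthest arrays. Col1a2 and the meningeal transporter Slc6a13 gave 0.902 and 0.878 (permutation test, adjusted p = 0.00036 and 0.00138). Within the sets, the r of Col1a2 with Col3a1 was 0.516 in females and 0.988 in males, and that with Slc6a13 was 0.711 and 0.955.

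Col1a1 with Col1a2 (r = 0.802, rho = 0.734, permutation test, adjusted p = 0.00684 and 0.011) gave 0.921 in males, -0.041 in females and 0.638 without the 2 farthest arrays. Lama2 with Col1a2 (0.755 and 0.558, permutation test, adjusted p = 0.0184 and 0.0961) gave 0.452 without them and -0.563 in females. Col1a2 with the fibroblast proteoglycan Dcn gave 0.765 and 0.742 (permutation test, adjusted p = 0.00392 and 0.00788), and 0.627 without the 2.

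Lamb1 and Col4a1, both vessel basement membrane chains, gave an r of 0.853 in females and 0.655 in males. Over the 18 arrays it was 0.736, with rho = 0.69 (permutation test, adjusted p = 0.00453 and 0.0105), and 0.76 without the 2 farthest arrays; taken alone, neither set passed. Col4a1 and Col4a2, read from the shared segment printed above, gave r = 0.354 and rho = 0.141 (permutation test, adjusted p = 0.274 and 0.658). The remaining 5 pairs were Col4a1 with Col1a2, Slc6a13, Flt1 or Lama4, and Lamc1 with Lamb1. They gave r of 0.146 to 0.371 over the 18 arrays and did not pass. Of these, Col4a1 with Col1a2, Slc6a13 and Lama4 passed in males alone, at 0.758, 0.728 and 0.84. In females the same pairs gave -0.628, -0.561 and -0.299, and none passed.

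Genes that act on these chains were read from lists. Over all probe sets tested, 1.19% fell and 1.77% rose in females, and 9.38% fell and 8.32% rose in males. Of 21 tested genes of collagen synthesis and processing, 1 fell and 1 rose in females and 6 fell and 1 rose in males. Plod3, which hydroxylates and glycosylates collagen lysines, rose in both (0.69 and 0.48). The collagen chaperone Serpinh1 fell in both (-0.89 and -0.69), and the crosslinking oxidases Loxl1 (-1.22) and Lox (-0.72) fell in males.

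Of the proteins that sit on fibres, 5 of 23 fell in females and 17 of 25 in males, with 1 higher there, and medians of -0.33 and -0.68. Ltbp1, which holds latent TGF-beta in the matrix, fell in both (-1.08 and -1.14), as did Fbln1 (-0.77 and -1.18) and Efemp1 (-0.76 and -1.42), and Fbln2 rose in males (0.28). Of the basement membrane partners none of 10 passed in females (3 at an unadjusted p under 0.05, limma), where Agrn gave -0.50 (adjusted p = 0.0502), and 2 of 11 fell in males, Dag1 (-0.31) and Tinagl1 (-0.71).

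Of 13 receptors for collagen and laminin none passed in females, 3 being lower and 2 higher at an unadjusted p under 0.05 (limma). There Sdc2 gave 0.41 and Ddr2 -0.43. In males 5 fell and 2 rose. Among these the collagen-binding kinase Ddr2 fell by 1.00, and the syndecan Sdc2 (0.28) and the laminin-binding integrin chain Itga3 (0.39) rose. Of 17 genes of matrix breakdown and its inhibitors, the lysosomal protease Ctsl rose in both sets (0.85 and 0.43), no other passed in females, and 4 fell in males, including Ctsk (-1.02) and Mmp23 (-0.45). Of the TGF-beta genes 1 of 14 fell in females and 4 of 15 in males: Tgfbi, a matrix protein induced by TGF-beta, fell in both (-0.83 and -0.74) and the receptor Tgfbr1 fell in males (-0.38).

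Other marker lists moved too, and their part in the collagen differences was not tested. The shares over all probe sets given above with the gene lists apply to these lists as well. Among mural cell genes none of 13 passed in females, with 6 lower and 1 higher at an unadjusted p under 0.05 (limma). Des gave -0.62 there and Rgs5 0.72 (limma, adjusted p = 0.0506 and 0.058). In males 5 fell, including Des (-0.61) and Vtn (-0.82), and Rgs5 rose (0.60). Of 8 oligodendrocyte genes 3 fell in females, including Mag (-0.92) and Cnp (-0.66), and none in males, where Mal gave 0.29 (limma, 1 at an unadjusted p under 0.05). Of 5 genes of their precursors, Olig1 (-0.68) fell in females and none passed in males, where Pdgfra gave -0.49 (limma, 1 at an unadjusted p under 0.05).

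Blood genes fell in both sets (1 of 2 in females and 2 of 2 in males), with Alas2 at -0.88 and -0.86 and Hbb at -0.97 in males. Of the microglia and macrophage genes none of 8 passed in females, where Csf1r gave -0.49 (limma, 1 at an unadjusted p under 0.05), and 4 of 7 fell in males, including Aif1 (-0.74) and P2ry12 (-0.45). Of 10 astrocyte genes, Gjb6 fell in females (-0.76) and 4 fell in males, including Gjb6 (-0.82) and Ntsr2 (-0.23). Of the choroid plexus and ependyma genes none of 5 passed in females, where Ttr gave 0.76 (limma, 0 at an unadjusted p under 0.05), and 2 of 4 fell in males, Ttr (-0.86) and Foxj1 (-0.63). Of the muscle genes none of 4 passed in females (1, Des, at an unadjusted p under 0.05, limma), and in males Des fell and Acta1 rose (0.28) among 3. Of 7 magnocellular neuron genes 4 rose in each set, among them Crh (3.16 and 3.22) and Rasd1 (1.48 and 1.84).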

How the data were processed

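Arrays measured RNA of the supraoptic nucleus. Per the submitters' processing notes, GCOS 1.2 gave the deposited intensity of each probe set on male arrays and MAS5 on female arrays; the 2% trimmed mean was 100 on every array. Of 24 samples, 19 had values and 18 were compared; the sample titled CH2770 was left out, and the lactating samples were not analysed here. No arrays were identical.

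Each array was brought to a trimmed mean of 500, and log2 was taken after adding 32. Controls (57 probe sets) and probe sets at or below the 30th percentile of the mean were dropped. limma 3.58.1 in R 4.3.3 (lmFit, eBayes with a mean-variance trend) compared dehydrated with control arrays within each set and the effects between sets, with Benjamini-Hochberg adjustment over 21729 probe sets and a threshold of 0.05. The fit was tested on simulated data. The number of arrays limits the precision. Printed levels are deposited signals, and levels of different probe sets are not compared.

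Of all probe sets, 20832 had 1 gene symbol, 436 several and 9831 none; symbols are those of the platform, and matching by Entrez ID changed 0. Where 1 probe set stood for a gene, it was the brightest over the 18 arrays. Deviations from group means were correlated over arrays, with 1e+05 permutations within groups for gene pairs and all permutations for the meninges marker mean. Promoter windows of 250 bases came from RefSeq, which held 41 of the 51 genes. Figures were drawn with matplotlib 3.10.9.

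Named in full were the 14 genes past the threshold with the smallest adjusted p and a fixed set of Col1a1, Col1a2, Col3a1, Col4a1, Col4a2, Lama2, Lama4, Lamb1, Lamb2 and Lamc1. Of each of 6 pathway and 11 marker lists, up to 2 lower and 2 higher genes a set were named, or the one with the smallest p. Slco1c1 of the endothelium list was named beside these. The members, lists, pairs and alternatives were chosen with earlier results of these data known. Alternatives were normalisation, offset, filter, trend, array weights, each array left out, the left-out array, a meninges marker covariate, 1 fit over 4 groups and means over probe sets.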

Additional observations from a re-analysis of the deposited data

Results flagged for a closer look

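In 88 groups of 4 or 5 arrays (22 genes), 12 held 1 array far from the others, by the gap to the nearest array divided by the range of the group; chance gives about 1 in 20. Male control 5 was low for 6 genes: Lama4 (signal 51.9, next 78.3, ratio 0.823), Col3a1 (292 and 601, 0.775), Col9a2 (95.2 and 148, 0.763), Col6a3 (75.7 and 151, 0.75), Col4a6 (25.7 and 36.9, 0.718) and Col1a2 (716 and 1326, 0.714). This array also had the lowest meninges marker mean of the male controls, 10.1 against 10.8 to 11.2 on the other 4.

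Male control 1 was low for Col7a1 (17.0, next 30.6, ratio 0.867) and high for Col11a1 (86.3 and 57.6, 0.751). Male dehydrated array 4 was low for Col4a1 (98.2 and 129, 0.796). In females, dehydrated array 1 was high for Col1a2 (285 and 246, 0.866), control 4 was high for Col13a1 (46.4 and 27.9, 0.857), and control 4 was low for Lamb1 (27.8 and 46.4, 0.839). Causes of these were not tested.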

How the results depend on the processing

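The count of 6 member probe sets lower in females was 3 with quantile normalisation, 2 with median centring, 0 with the left-out array and 0 with the meninges covariate, and 2 to 7 when each array was left out in turn. The count of 23 lower in males was 1 with the covariate and 16 to 28 without each array. The 2 higher in males became 4 with median centring and 4 with the covariate, and 2 to 4 without each array. No member rose in females or differed between the sets under any alternative. The fibrillar median in females (-0.39) was -0.20 with the left-out array and -0.50 over mean probe sets; the basement membrane median (0.05) was -0.21 with the covariate and 0.34 with the left-out array. In males the fibrillar median (-0.53) became 0.023 and the basement membrane median (-0.18) 0.24 with the covariate. With the covariate the male estimate changed sign for Col1a2 (0.063, SE 0.095), Col1a1 (0.023, SE 0.155), Lama2 (0.28, SE 0.16) and Col3a1 (0.38, SE 0.095). Of these only Col3a1 passed (limma, adjusted p = 0.042). On female arrays alone r was negative for Col1a1 with Col1a2 (-0.041) and for Lama2 with Col1a2 (-0.563). Neither passed there (permutation test, adjusted p = 0.92 and 0.568). Of 833 refits of single probe sets, 758 kept their side of the threshold, 55 lost the threshold, 16 gained it and 4 calls changed sign. The cause of these changes was not tested. No paired analysis was possible because no label ties a control sample to a dehydrated one, and replicate numbers here only follow accession order. The number of arrays and dim probe sets limit these results: 11 of 72 were tested in neither set, and 4 female arrays a group gave a median SE of 0.17.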
